A study of Homo sapiens with 8 samples.

Results

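The tricarboxylic acid (TCA) cycle enzymes were followed through 9 genes, CS, IDH1, IDH2, IDH3A, OGDH, SUCLG1, SUCLG2, SDHA and MDH2, taken by symbol from a table of 58870 genes. All 9 passed the filter on low counts and were among the 13860 genes tested. RNA was sequenced in 8 libraries of Panc 10.05 cells, an established line of human pancreatic ductal adenocarcinoma. In 4 libraries the cells were controls and in 4 they carried an ELAPOR1 transgene and overexpressed this endosomal and lysosomal membrane protein. No further treatment, time or allele was labelled for either group. The promoter of the transgene, the vector of the controls, whether the cells were a clone or a pool and whether replicates were separate cultures were not given in the sources used here, so p-values measure the spread between these libraries, which may be technical. The series addresses whether ELAPOR1 shifts the tumour subtype and reprograms metabolism.

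The TCA cycle runs in the mitochondrial matrix. It condenses acetyl-CoA with oxaloacetate to citrate and oxidises citrate back to oxaloacetate, which yields NADH, reduced ubiquinone and a nucleoside triphosphate, and it supplies carbon for lipid, amino acid and heme synthesis. Several steps are carried out by complexes of more than one gene product, and isocitrate and malate dehydrogenases also have isozymes outside the cycle. RNA levels do not measure enzyme activity or flux.

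Control libraries held 16558600 to 18128757 estimated counts and ELAPOR1 libraries 13765509 to 17258166. ELAPOR1, listed under KIAA1324, had 1 to 4 counts in control and 5910 to 7368 in ELAPOR1 libraries, so all 8 libraries matched their labels. The 6 ductal epithelial markers examined, KRT8 the highest, summed to 11929 to 13196 CPM (counts per 1e6, scaled by TMM) in control and 11159 to 11510 CPM in ELAPOR1 libraries. This sum was carried by KRT8 and KRT18, which were called lower (log2 change -0.16 and -0.36 by edgeR), whereas KRT7 (0.32), KRT19 (0.25) and CDH1 (0.11) were called higher and EPCAM was not called. The 5 fibroblast markers summed to 2.71 to 4.27 CPM over all libraries, with COL1A2, DCN and LUM at 0. The 3 acinar markers were all at 0. The 4 leukocyte markers summed to 81.8 to 88.0 CPM in control and 72.7 to 78.9 CPM in ELAPOR1 libraries, carried by CD68, with CD3E at 0 and PTPRC and LYZ under 10 counts in every library. The 3 endothelial markers summed to 1.61 to 1.95 CPM in control and 0.576 to 0.865 CPM in ELAPOR1 libraries, carried by VWF, with CDH5 at 0. Whether these differences have a part in the results was not tested.

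In ELAPOR1 libraries 7 of the 9 enzymes passed the test against control (edgeR, adjusted p under 0.05), where 44.7% of all tested genes did. IDH1, IDH2, SUCLG2, SDHA and MDH2 fell, which is 5 of 9 against 22.1% of tested genes called lower, and IDH3A and SUCLG1 rose, which is 2 of 9 against 22.6% called higher. CS and OGDH did not pass the test. The 9 were chosen with earlier results of these data known, so these shares describe the 9 and do not test the cycle. Among the 11 other cycle genes examined 3 were called, with a median log2 fold change of -0.023. In such bulk RNA, fewer cells with a transcript and less of it per cell cannot be told apart. The enzymes are abundant transcripts, for which small changes are easier to detect: of the 6970 tested genes with a mean CPM at least that of IDH2, the lowest of the 9, 57.6% were called, 26.9% lower and 30.8% higher.

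The changes were small. The median log2 fold change of the 9 enzymes was -0.13, against 0.00087 over all tested genes. The median size of the change, whatever its sign, was 0.14 for the enzymes, 0.18 over all tested genes and 0.14 over the genes at least as abundant as IDH2. The CPM ranges of control and ELAPOR1 libraries were separate for 6 of the 9, where 39.2% of tested genes showed no overlap. For 5 of them every ELAPOR1 library lay below every control library (19.3% of tested genes), and for 1, IDH3A, every ELAPOR1 library lay above (20.0% of tested genes).

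**Figure D1:**
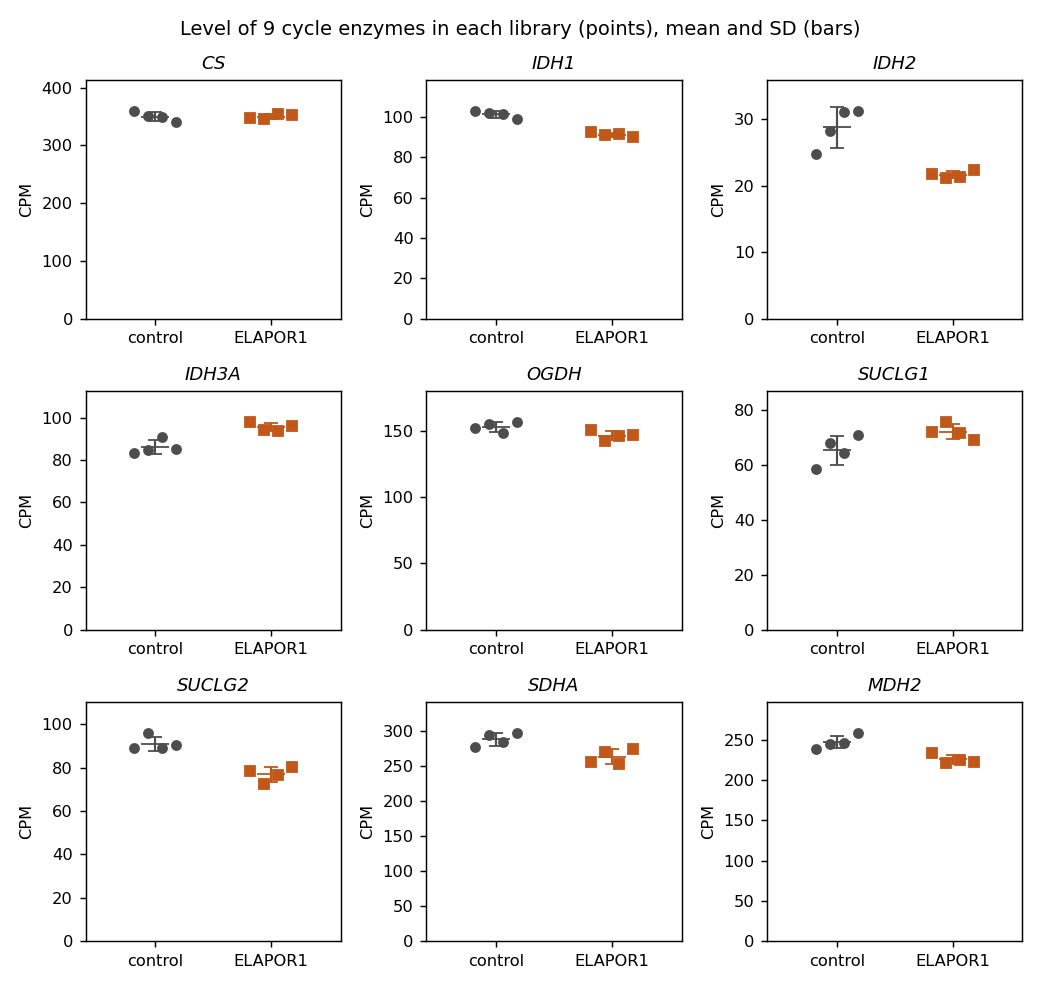
CPM of the 9 enzymes in each of the 8 libraries (grey circles, 4 control libraries; orange squares, 4 ELAPOR1 libraries), with the group mean and SD as bars and each axis starting at 0. IDH2 shows the largest difference between group means relative to its level among the 9, the CS points overlap, and SUCLG1 overlaps because control replicate 4 lies within the ELAPOR1 range.

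CS encodes citrate synthase, which joins acetyl-CoA and oxaloacetate at the entry of the cycle. The gene (ENSG00000062485.19) lies on the minus strand of chromosome 12, from 56271699 to 56300392 in GRCh38. Its CPM was 360, 351, 348 and 340 in control replicates 1 to 4 and 347, 345, 354 and 352 in ELAPOR1 replicates 1 to 4. The groups overlapped, and the ELAPOR1 values lay inside the control range. Its log2 change of -0.00027 had an SE of 0.0288 and a 95% interval of -0.059 to 0.058 (adjusted p = 0.995 by edgeR). CS shares exonic sequence on the same strand with the annotated gene AC073896.1, which held 58 to 171 counts per library beside 4913 to 6486 for CS. RSEM divides reads between such genes, and the CS counts were not whole numbers.

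The next oxidation, of isocitrate to 2-oxoglutarate, has 3 forms of enzyme, and their transcripts moved apart. IDH3A encodes the catalytic alpha subunit of the NAD-dependent enzyme of the cycle, IDH2 the NADP-dependent enzyme of the matrix, and IDH1 its counterpart in cytosol and peroxisomes. IDH3A rose, whereas IDH2 and IDH1 fell.

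IDH3A (ENSG00000166411.14, plus strand of chromosome 15, 78131498 to 78171949) was at 83.4, 84.5, 91.0 and 85.2 CPM in control and 97.9, 94.1, 93.9 and 95.9 CPM in ELAPOR1 replicates 1 to 4. All 4 ELAPOR1 libraries were above the highest control library, replicate 3. It rose from a mean of 86.0 ± 3.40 CPM to one of 95.5 ± 1.86 CPM (SD over 4 libraries). Its log2 fold change was 0.15 with an SE of 0.0401 (adjusted p = 2.4e-03 by edgeR). Its annotated exons overlap those of CIB2 and ACSBG1 on the opposite strand. Neither held more than 25 counts in a library, against at least 1304 for IDH3A.

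IDH2 (ENSG00000182054.9, minus strand of chromosome 15, 90083045 to 90102504) changed most. It was at 24.7, 28.2, 31.0 and 31.2 CPM in control and 21.8, 21.2, 21.2 and 22.3 CPM in ELAPOR1 replicates 1 to 4. The ELAPOR1 libraries lay close together, and control replicate 1 was nearest to them. It fell from a mean of 28.8 ± 3.07 CPM to one of 21.6 ± 0.543 CPM (SD over 4 libraries). On the log2 scale the change was -0.41 with an SE of 0.0726 (95% interval -0.56 to -0.26, adjusted p = 1.9e-05 by edgeR). That size exceeded the change of 82.2% of tested genes. IDH2 had 295 to 518 counts per library, the fewest of the 9 enzymes.

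IDH1 (ENSG00000138413.13, minus strand of chromosome 2, 208236227 to 208266074) was at 103, 102, 101 and 98.9 CPM in control and 92.4, 90.9, 91.6 and 89.9 CPM in ELAPOR1 replicates 1 to 4. The groups were tight and did not overlap. It fell from a mean of 101 ± 1.76 CPM to one of 91.2 ± 1.07 CPM (SD over 4 libraries). The log2 change amounted to -0.15 with an SE of 0.0376 (adjusted p = 1.2e-03 by edgeR). The antisense gene IDH1-AS1, whose exons overlap IDH1, held at most 3 counts.

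OGDH encodes the E1 subunit of the 2-oxoglutarate dehydrogenase complex, which forms succinyl-CoA. The gene (ENSG00000105953.15, plus strand of chromosome 7, 44606572 to 44709066) was at 152, 155, 148 and 156 CPM in control and 150, 142, 146 and 147 CPM in ELAPOR1 replicates 1 to 4. The groups overlapped through control replicate 3 and ELAPOR1 replicate 1. Its log2 change of -0.063 had an SE of 0.0339 and a 95% interval of -0.13 to 0.0056 (adjusted p = 0.131 by edgeR). The call depended on a correction: with each library's trends against GC content and transcript length removed, OGDH was called lower (-0.081, edgeR adjusted p = 0.026).

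Succinyl-CoA synthetase, which makes a nucleoside triphosphate at the next step, pairs the common alpha subunit SUCLG1 with either the GTP-forming beta subunit SUCLG2 or the ATP-forming beta subunit SUCLA2. Its alpha subunit rose and its GTP-forming beta subunit fell. SUCLG1 (ENSG00000163541.12, minus strand of chromosome 2, 84423523 to 84460045) was at 58.6, 68.0, 64.4 and 70.8 CPM in control and 72.2, 75.6, 71.6 and 69.2 CPM in ELAPOR1 replicates 1 to 4. Control replicate 4 was above ELAPOR1 replicate 4, so the groups overlapped. It rose from a mean of 65.4 ± 5.27 CPM to one of 72.2 ± 2.67 CPM (SD over 4 libraries). On the log2 scale the change was 0.14 with an SE of 0.0497 (adjusted p = 0.0202 by edgeR). This call rested on single libraries: it was lost without control replicate 1 (0.085, edgeR adjusted p = 0.13), without control replicate 3 (0.13, adjusted p = 0.057) and without ELAPOR1 replicate 2 (0.12, adjusted p = 0.083).

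SUCLG2 (ENSG00000172340.14, minus strand of chromosome 3, 67360460 to 67654614) was at 89.1, 95.9, 89.0 and 90.4 CPM in control and 78.5, 72.4, 76.6 and 80.4 CPM in ELAPOR1 replicates 1 to 4. Every ELAPOR1 library was below every control library. It fell from a mean of 91.1 ± 3.28 CPM to one of 77.0 ± 3.41 CPM (SD over 4 libraries). On the log2 scale the change was -0.24 with an SE of 0.0425 (95% interval -0.33 to -0.16, adjusted p = 1.6e-05 by edgeR). SUCLA2, the ATP-forming alternative, was at 30.7 ± 1.69 CPM in control and 29.8 ± 1.96 CPM in ELAPOR1 libraries (SD, n = 4 each) and did not pass the test (-0.041, 95% interval -0.17 to 0.088, edgeR adjusted p = 0.635).

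SDHA encodes the flavoprotein of succinate dehydrogenase, the cycle enzyme that is also complex II of the respiratory chain. The gene (ENSG00000073578.17, plus strand of chromosome 5, 218241 to 256700) was at 277, 295, 285 and 297 CPM in control and 257, 271, 253 and 275 CPM in ELAPOR1 replicates 1 to 4. The lowest control library, replicate 1, and the highest ELAPOR1 library, replicate 4, nearly met but did not overlap. It fell from a mean of 288 ± 9.21 CPM to one of 264 ± 10.6 CPM (SD over 4 libraries). On the log2 scale the change was -0.13 with an SE of 0.0326 (adjusted p = 1.4e-03 by edgeR). SDHA has the near-identical pseudogenes SDHAP1, SDHAP2 and SDHAP3, among which reads can be split, and SDHA took 92.6% to 93.7% of the counts of the 4 genes. Adding the counts of all 4 together gave a log2 change of -0.12 (SE 0.032, adjusted p = 0.002 by edgeR).

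MDH2 encodes the mitochondrial malate dehydrogenase, which regenerates oxaloacetate and closes the cycle. The gene (ENSG00000146701.12, plus strand of chromosome 7, 76048051 to 76067508) was at 239, 245, 247 and 258 CPM in control and 234, 221, 226 and 223 CPM in ELAPOR1 replicates 1 to 4. ELAPOR1 replicate 1 came closest to the control libraries, without overlap. It fell from a mean of 247 ± 8.02 CPM to one of 226 ± 5.55 CPM (SD over 4 libraries). On the log2 scale the change was -0.13 with an SE of 0.0318 (adjusted p = 9.6e-04 by edgeR).

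Promoter windows are shown for SDHA, which fell, and IDH3A, which rose, picked because their counts of the motifs below differed. The windows are the 250 bases before RefSeq gene starts in GRCh38.p14, and 8 of the 9 enzymes were matched by symbol in 9 windows, 2 of them for IDH1. RefSeq starts differ from the outermost GENCODE starts used for the gene positions above: 5 windows (both of IDH1, and those of IDH2, IDH3A and SUCLG1) lie inside the GENCODE gene, and the other 4, SDHA among them, cross its outer start. The motif counts therefore describe sequence before the RefSeq starts and not before every annotated start of a gene, and which starts these cells used was not measured here. Capitals mark TGCGCA, the core bound by the respiratory-gene activator NRF1, the GC box GGGCGG and CCAAT, searched on both strands.
SDHA, chr5:218070-218319, plus strand: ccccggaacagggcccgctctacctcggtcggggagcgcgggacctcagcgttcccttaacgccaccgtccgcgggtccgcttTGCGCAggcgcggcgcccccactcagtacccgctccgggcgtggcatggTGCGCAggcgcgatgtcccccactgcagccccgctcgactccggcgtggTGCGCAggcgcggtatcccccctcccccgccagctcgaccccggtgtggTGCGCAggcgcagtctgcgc
IDH3A, chr15:78149112-78149361, plus strand: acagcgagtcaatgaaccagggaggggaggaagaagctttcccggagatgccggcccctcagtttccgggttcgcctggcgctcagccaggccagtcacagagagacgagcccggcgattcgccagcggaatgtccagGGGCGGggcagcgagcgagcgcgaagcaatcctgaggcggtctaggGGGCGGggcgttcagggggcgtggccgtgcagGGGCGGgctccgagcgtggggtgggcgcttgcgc
The SDHA window held 4 matches to TGCGCA and none to the other motifs, and TGCGCA was found in none of the other 8. TGCGCA was taken up after matches to a longer form of the NRF1 motif had been seen, and that longer form also matched the end of the IDH3A window. The windows of SDHA and IDH3A both end in tgcgc, so a TGCGCA running past the window's end would not be counted. A contrast in the NRF1 motif between SDHA and IDH3A can therefore not be drawn from these counts. The IDH3A window held 3 GC boxes. GC boxes were found in 5 of the 9 windows, those of CS, IDH1, IDH3A and SUCLG2, and CCAAT in 2, of CS and IDH1. Over all 35116 RefSeq windows of this length, 6.89% held TGCGCA, 42.6% GGGCGG and 32.0% CCAAT. These are letter matches and not measured binding sites, and genes with a GC box included IDH3A, which rose, IDH1 and SUCLG2, which fell, and CS, which was not called.

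Levels can be compared between genes only per length, so CPM were divided by the length of each gene's merged exons in kilobases. On this scale of level, control libraries had MDH2 at 67.9 ± 2.20 and CS at 54.6 ± 1.29 CPM per kb (SD, n = 4 each), the highest of the 9. SDHA followed at 34.4 ± 1.10, then SUCLG2 at 29.5 ± 1.06 and OGDH at 29.3 ± 0.715 CPM per kb. SUCLG2 and OGDH did not differ beyond their spread. IDH1 was at 21.5 ± 0.373, SUCLG1 at 15.3 ± 1.23, IDH3A at 12.6 ± 0.498 and IDH2 at 10.2 ± 1.09 CPM per kb. In ELAPOR1 libraries the order was the same except that OGDH, at 28.1, stood above SUCLG2, at 24.9 CPM per kb. Divided by the longest annotated transcript instead, CS (114 CPM per kb in control), MDH2 (112) and SDHA (96.1) remained the top 3 and IDH2 (10.7) the lowest, while the order in between changed.

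**Figure D2:**
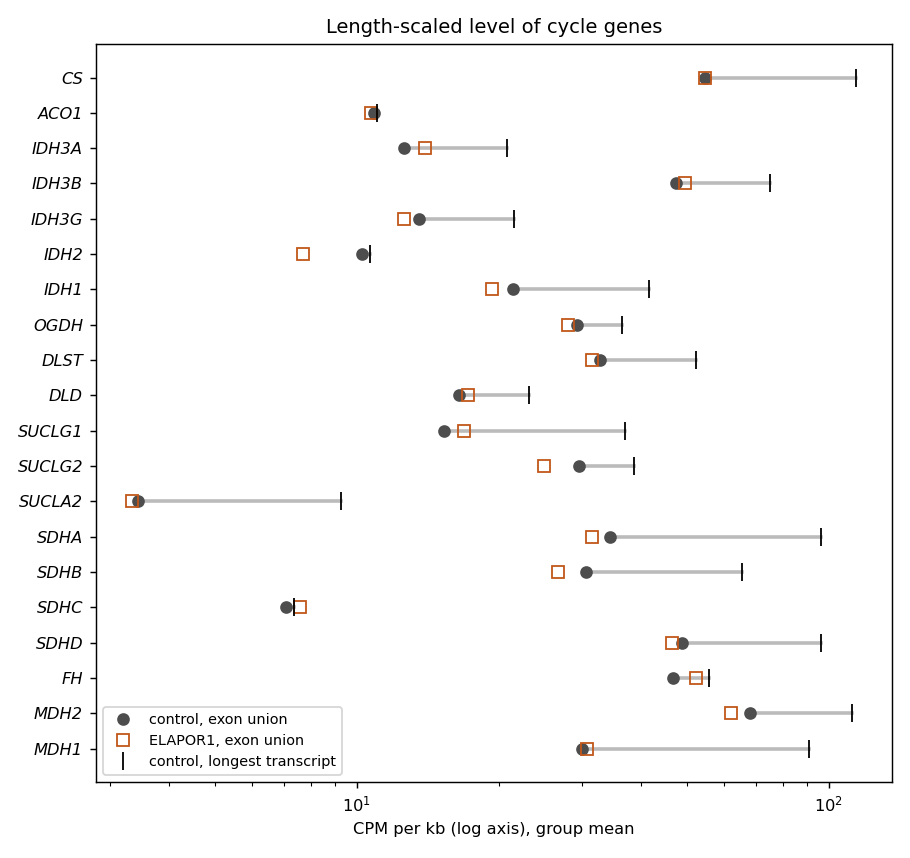
Length-scaled level (CPM per kb, log axis) of 20 cycle genes in order of step: group means in control (filled circles) and ELAPOR1 libraries (open squares) over merged exons, and the control mean over the longest transcript (ticks, joined by a grey line). MDH2 and CS are highest among the 9 enzymes and SUCLA2 is lowest of all over merged exons, and for most genes the choice of length moves the level more than the group does.

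Ratios between related enzymes within a library do not depend on scaling between libraries, and are given as descriptions without a test. Their size depends on the length used, here merged exons, whereas their log2 difference between groups does not. Over the longest transcript, the mean control ratio of MDH2 to MDH1 was 1.23 instead of 2.26. That of SUCLG2 to SUCLA2 was 4.20 instead of 8.61. The ratio of MDH2 to MDH1, its cytosolic isozyme, was 2.23 to 2.29 in control and 1.98 to 2.04 in ELAPOR1 libraries, on the scale of CPM per kb. It was lower in each ELAPOR1 library than in any control library. The ratio of IDH2 to IDH1 was 0.402, 0.464, 0.514 and 0.530 in control and 0.396, 0.391, 0.389 and 0.417 in ELAPOR1 libraries. Control replicate 1 lay within the ELAPOR1 range, so these groups overlapped. The ratio of SUCLG2 to SUCLA2 was 7.91 to 9.34 in control and 6.46 to 8.12 in ELAPOR1 libraries, which also overlapped.

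A further 2 ratios were added after the values had been seen, so their separation was to be expected from the choice. SUCLG1 to SUCLG2, the alpha to the GTP-forming beta subunit, was 0.474 to 0.564 in control and 0.621 to 0.753 in ELAPOR1 libraries. IDH3A to IDH2 was 1.12 to 1.39 in control and 1.77 to 1.85 in ELAPOR1 libraries.

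**Figure D3:**
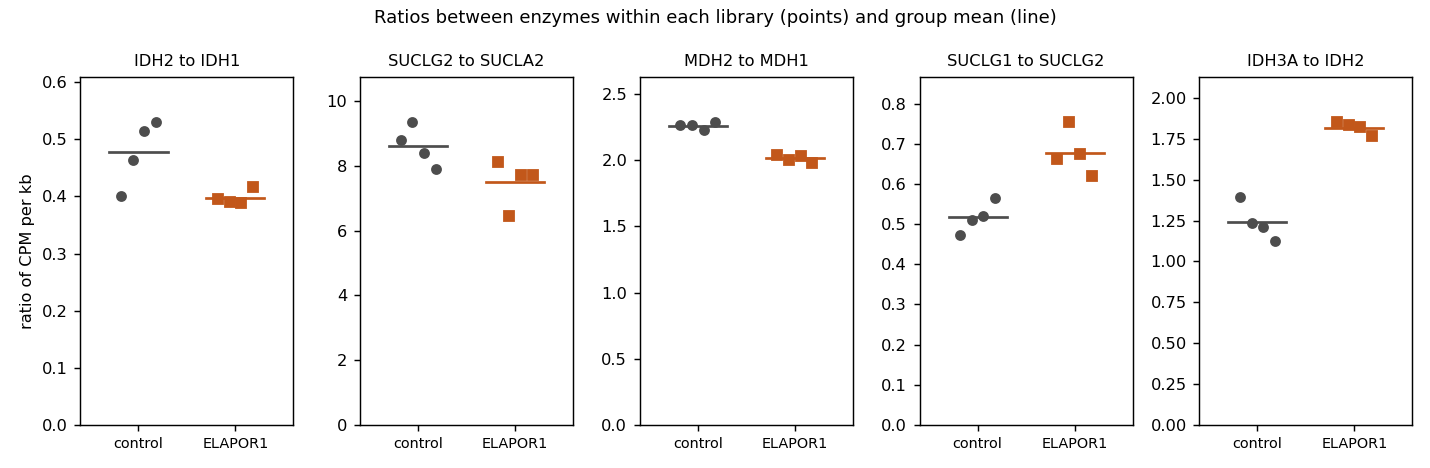
Ratio of length-scaled levels (CPM per kb over merged exons) for 5 pairs of enzymes in each library (points: grey, control; orange, ELAPOR1) with the group mean as a line and axes starting at 0. MDH2 to MDH1 separates the groups, whereas IDH2 to IDH1 and SUCLG2 to SUCLA2 overlap; the last 2 pairs were chosen after their values were seen.

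Of the 11 other cycle genes examined, all tested, 3 were called: FH and SDHC rose and SDHB fell. The share called was 44.7% over all tested genes and 57.6% over those with a mean CPM at least that of IDH2, as all 11 had. The median log2 fold change of the 11 was -0.023. Within succinate dehydrogenase, SDHB, the iron-sulfur subunit, fell like SDHA, from a mean of 75.4 ± 5.86 to one of 65.8 ± 0.659 CPM (SD over 4 libraries; log2 change -0.20, adjusted p = 9.8e-04 by edgeR). The membrane anchor SDHC rose by 0.098 (adjusted p = 0.0389), and SDHD, the other anchor, did not pass the test (-0.071, 95% interval -0.14 to -0.00073, adjusted p = 0.0944). The SDHC call is uncertain, since it was lost in 10 settings besides the test against a 1.5-fold change, among them the DESeq2 Wald test (adjusted p = 0.06) and removal of GC and length trends (0.047, adjusted p = 0.29). FH, the fumarase that follows, rose between SDHA and MDH2, which both fell. Its mean went from 100.02 ± 5.25 to 112 ± 4.89 CPM (SD over 4 libraries, log2 change 0.17, adjusted p = 1.1e-03 by edgeR). The groups overlapped, since control replicate 4 (107.8 CPM) was above ELAPOR1 replicate 2 (106.9 CPM).

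The partners of the other enzymes did not pass the test. IDH3B was at 0.064 and IDH3G at -0.10 on the log2 fold change scale beside IDH3A, and DLST at -0.050 and DLD at 0.069 beside OGDH, as the E2 and E3 subunits. The cytosolic aconitase ACO1 (-0.023) and cytosolic MDH1 (0.035) had edgeR adjusted p-values of 0.692 and 0.429. With GC and length trends removed, IDH3B (0.12, adjusted p = 0.003) and MDH1 (0.074, adjusted p = 0.036) were called higher. Without control replicate 1, IDH3G was called lower (-0.15, adjusted p = 0.043 by edgeR).

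**Figure D4:**
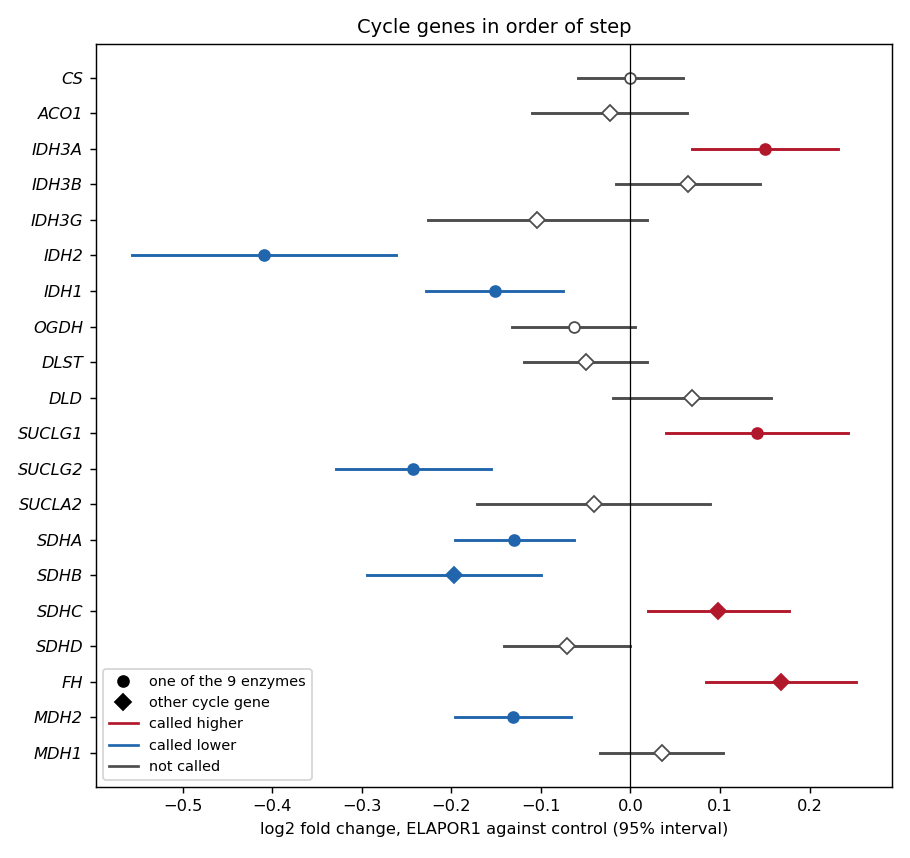
Log2 fold change of ELAPOR1 against control with its 95% interval for 20 cycle genes in order of step (circles, the 9 enzymes; diamonds, other cycle genes; red, called higher; blue, called lower; open grey, not called). IDH2 at -0.41 lies farthest from 0, and genes of one complex, such as SUCLG1 and SUCLG2 or SDHB and SDHC, lie on opposite sides. Besides the test against a 1.5-fold change, the call of SUCLG1 was lost in 3 settings and that of SDHC in 10.

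Genes around the cycle were examined through 4 more lists, chosen for their function but with earlier results of these data known. Over these and the other cycle genes, 20 of 49 tested genes were called, 7 higher and 13 lower, with a median log2 fold change of -0.023. The share called lies near the background of 44.7% of all tested genes. More of the 49 were called lower than higher, where the background was 22.6% higher and 22.1% lower. Of the 12 genes of pyruvate entry, 7 were called (background 44.7%), 6 of them lower (background 22.1%). PDP1, a phosphatase that activates pyruvate dehydrogenase, fell from a mean of 462 ± 16.8 to one of 299 ± 3.28 CPM (SD over 4 libraries), by 0.63 on the log2 scale (adjusted p = 3.7e-18 by edgeR). The second phosphatase, PDP2, fell by 0.21 (adjusted p = 3.9e-03). Among the kinases that inactivate the complex, PDK2 rose by 0.28 (adjusted p = 1.9e-03) and PDK4 fell by 0.62 (adjusted p = 0.0144 by edgeR). PDK3 (0.29, adjusted p = 0.065 by edgeR) and PDK1 (0.14, adjusted p = 0.253) did not pass the test. PDK3 was called higher with total count scaling (0.31, adjusted p = 0.047 by edgeR). It was also called higher without ELAPOR1 replicate 1 (adjusted p = 0.041) and without ELAPOR1 replicate 2 (adjusted p = 0.037). PDK4 was low, at 3.13 ± 0.241 CPM in control and 2.03 ± 0.477 CPM in ELAPOR1 libraries (SD over 4 libraries). Its call was lost without ELAPOR1 replicate 3 (-0.52, adjusted p = 0.056 by edgeR). The other 3 called genes were the subunits PDHB, DLAT and PDHX, with log2 fold changes from -0.20 to -0.12. Of these, the call of PDHB was lost without ELAPOR1 replicate 3 (-0.14, adjusted p = 0.053 by edgeR). The subunit PDHA1 did not pass the test (0.076, adjusted p = 0.105), but was called higher with total count scaling (0.098, adjusted p = 0.038 by edgeR).

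Of 9 genes of anaplerosis and exit, 4 were called, 2 higher and 2 lower, a share near the background of 44.7%. GOT2, the mitochondrial aspartate aminotransferase, rose from a mean of 122 ± 2.26 to one of 154 ± 5.91 CPM (SD over 4 libraries; log2 change 0.34, adjusted p = 1.2e-09 by edgeR). The mitochondrial malic enzyme ME2 rose by 0.16 (adjusted p = 0.0155), a call that was lost with GC and length trends removed (0.094, adjusted p = 0.12). PCK2, the mitochondrial phosphoenolpyruvate carboxykinase, fell from 12.9 ± 1.67 to 7.99 ± 1.11 CPM (-0.69, adjusted p = 3.6e-06), and the cytosolic malic enzyme ME1 fell by 0.30 (adjusted p = 3.4e-04). ACLY, which splits exported citrate, did not pass the test (0.064, adjusted p = 0.13), but was called higher with total count scaling (0.086, adjusted p = 0.042) and without control replicate 1 (0.080, adjusted p = 0.038 by edgeR).

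Of 7 carriers of cycle intermediates, 6 were tested and 3 called, against a background of 44.7%. The citrate carrier SLC25A1 fell from a mean of 66.8 ± 2.59 to one of 42.4 ± 2.02 CPM (SD over 4 libraries; log2 change -0.66, adjusted p = 5.0e-13 by edgeR), and the aspartate-glutamate carrier SLC25A12 rose by 0.33 (adjusted p = 3.0e-04). The glutamate carrier SLC25A22 was called lower (-0.11, adjusted p = 0.0416), but this was lost when any 1 library other than control replicate 1 was left out (adjusted p 0.052 to 0.13). It was also lost with GC and length trends removed (-0.046, adjusted p = 0.38), with the replicate block (0.059), by the DESeq2 Wald test (0.065), with no filter beyond 1 count (0.071) and with total count scaling (0.1). Of 11 genes of assembly and cofactors 3 were called, against the same background: the succinate dehydrogenase assembly factors SDHAF4 (-0.49, adjusted p = 1.1e-04) and SDHAF3 (0.28, adjusted p = 2.8e-03), and D2HGDH, which oxidises D-2-hydroxyglutarate (-0.36, adjusted p = 1.8e-05). With GC and length trends removed, the carrier SLC25A10 was called higher (0.19, adjusted p = 0.0014 by edgeR). DHTKD1, of the assembly and cofactors list, was then called lower (-0.16, adjusted p = 0.041).

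**Figure D5:**
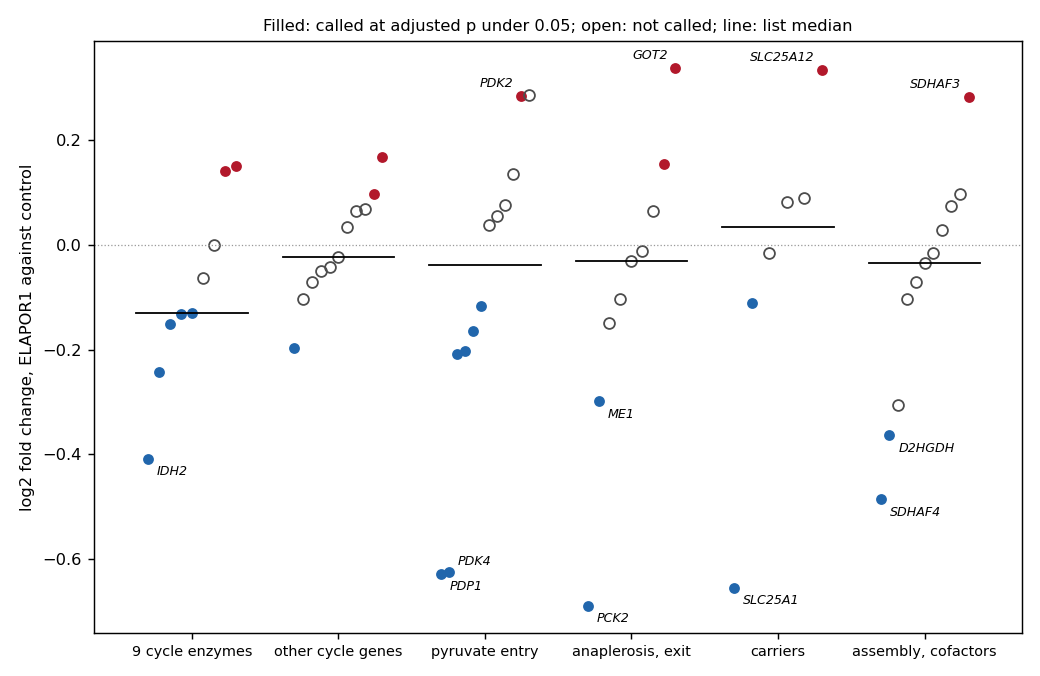
Log2 fold change of ELAPOR1 against control for each tested gene of the 9 enzymes and 5 related lists (filled red or blue, called higher or lower; open, not called; line, list median). The enzymes' median of -0.13 is the lowest of the 6, but the enzymes and lists were chosen with earlier results of these data known. The largest single changes, of PCK2, SLC25A1, PDP1 and PDK4, are in the surrounding lists, and PDK4 has the lowest CPM of these.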

How the data were processed

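The authors deposited 1 gene table of expected counts, estimated by RSEM per the table's name, unscaled, with a column for each of 8 libraries, 4 control and 4 ELAPOR1. Per the submitters' processing notes, cutadapt, STAR, RSEM and DESeq2 were used with the build hg38; versions, annotation and use of strand were not given in the sources used here. Of nonzero values, 15.0% were not whole. Expected counts were rounded and tested over the whole table with edgeR 4.0.16 in R 4.3.3 (filterByExpr, TMM, robust quasi-likelihood test, two-sided, no covariate), with Benjamini-Hochberg adjustment over 13860 genes. The standard error is the log2 fold change divided by the square root of F. Locations and lengths are from GENCODE 29 (GRCh38), in which 58597 of 58870 identifiers matched without version.

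The 9 enzymes and the lists were chosen with earlier results of these data known. Of the lists, 2 genes are not reported here and are left out of the lists' counts and plots. All 9 and all other cycle genes were eligible to be named. Of each further list, up to 4 called genes with the largest change were. PDHA1, PDHB, DLAT, PDHX, PDK1, PDK3, ACLY, SLC25A10 and DHTKD1 were named after their values were seen. Alternatives used DESeq2 1.42.0, limma 3.58.1, other scalings and filters, a replicate block, each library left out, a 1.5-fold threshold, and removal of GC and length trends (5-degree splines; GC and length known for 99.8% of genes). The procedure was tested on simulated counts. Plots used matplotlib 3.10.9. The promoter motifs were chosen with results known, and TGCGCA replaced a longer NRF1 motif after the matches of that motif had been seen.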

Additional observations from a re-analysis of the deposited data

Results flagged for a closer look

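Among 52 groups of 4 libraries examined (20 cycle genes, 5 ratios and the library totals), 1 held a single library that stood apart by Dixon's criterion for 4 values at the 95% level. Chance gives about 1 in 20, or 2.6 groups. DLST was at 153.9 CPM in control replicate 2 and from 146.1 to 147.4 CPM in the other control libraries. DLST was not called, and none of the 9 enzymes was concerned. This criterion looks for 1 library apart and does not register a gradual change over replicates. Such an order was present in control libraries. From replicate 1 to 4, CS (360 to 340 CPM) and IDH1 (103 to 98.9 CPM) fell at each step. Over the same libraries IDH2 (24.7 to 31.2 CPM) and MDH2 (239 to 258 CPM) rose at each step. The other enzymes were not so ordered, and whether the order of replicates has a meaning was not tested. Control libraries differed more among themselves than ELAPOR1 libraries. Between pairs of libraries, chi-square per degree of freedom of the counts was 2.14 to 6.22 in control and 1.95 to 2.22 in ELAPOR1. It was highest between control replicates 1 and 4, and IDH2 was at 24.7 CPM in the former and 31.2 CPM in the latter.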

How the results depend on the processing

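The 5 enzymes called lower and IDH3A kept their call and direction under every alternative except the test against a 1.5-fold change. That test (edgeR glmTreat) called 0 of the 9 enzymes, 0 higher and 0 lower, with 0 at an unadjusted p under 0.05; it called 0 genes in each of the other 5 lists (1 unadjusted in pyruvate entry and 1 among carriers) and 215 of all genes, against 6193. The DESeq2 Wald test and limma-voom, run without that threshold, each called 7 enzymes. Removal of GC and length trends called 8, with and without the replicate block. Leaving out 1 library at a time gave 6 to 7 enzymes called, 1 to 2 of them higher, the lower count each time through SUCLG1. Replicate numbers did not pair the libraries (correlations of deviations -0.021 to 0.033, and 2 of 8 libraries correlated best with their own number); with the replicate block 7 enzymes and 5926 genes were called. Over the longest transcript, control levels were 114 (CS), 41.5 (IDH1), 20.8 (IDH3A), 36.5 (OGDH), 37.1 (SUCLG1), 38.7 (SUCLG2), 96.1 (SDHA) and 112 (MDH2) CPM per kb. IDH2, with 295 to 518 counts per library, had the fewest counts of the 9.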
